A study of Mus musculus with 4 samples.

Results

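Mitochondrial ribosomal protein genes were measured with Clariom S Mouse arrays in the infarcted whole hearts of 4 male mice. These genes are encoded in the nucleus. The members were all genes whose symbol in the array's annotation starts with Mrpl or Mrps and a digit. There were 76 of them among 19505 named genes, 48 with Mrpl symbols and 28 with Mrps symbols, and each was read by 1 probe. TTg-MI hearts (2 mice) had the genotype Tcf21iCre/Tomato/MGTH2A, and Ctrl-MI hearts (2 mice) had Tcf21iCre/Tomato. Both groups thus carried the Cre under Tcf21, a gene of cardiac fibroblasts, and the Tomato reporter, and only TTg-MI carried MGTH2A. The name MGTH2A stands in this field for the joined reprogramming factors Mef2c, Gata4, Tbx5 and Hand2. In both groups the left coronary artery was ligated at 8 weeks of age, and hearts were taken 3 months after the infarction. Mice with a well-preserved ejection fraction soon after surgery had been removed from the study, per the labels. No time or agent of Cre induction was stated in the labels.

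The mitochondrial ribosome translates the few messages of the mitochondrial genome, all of which encode core subunits of the respiratory chain and ATP synthase. Its ribosomal RNAs come from mitochondrial DNA, whereas every one of its proteins is made in the cytosol from a nuclear gene and imported. The large subunit forms the peptide bond and the exit tunnel, and the small subunit binds and decodes the message. Some of the proteins have counterparts in bacterial ribosomes and others are specific to mitochondria. Heart muscle is among the tissues richest in mitochondria, and in humans variants in several of these genes cause cardiomyopathy.

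Promoters of genes for mitochondrial proteins are known for sites of nuclear respiratory factor 1 (NRF1) and of the ETS factor GABP. The 250 bases before the RefSeq start of each gene (GRCm38.p6) were available for 67 of the 76 genes. The windows of 4 genes are shown because these genes are among those described first below. Mrpl28 and Mrps9 had the smallest p of the large and small subunit symbols. Mrpl39 and Mrps22 are members with a higher TTg-MI mean whose windows hold a searched motif. Capitals mark a match to a searched motif, and a window without capitals holds none.
Mrpl39, chr16:84735245-84735494, minus strand: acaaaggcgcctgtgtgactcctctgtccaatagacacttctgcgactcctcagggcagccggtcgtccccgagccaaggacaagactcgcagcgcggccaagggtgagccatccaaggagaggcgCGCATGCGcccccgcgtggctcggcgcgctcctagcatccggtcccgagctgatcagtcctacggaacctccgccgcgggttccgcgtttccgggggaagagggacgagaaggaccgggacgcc
Mrps22, chr9:98601680-98601929, minus strand: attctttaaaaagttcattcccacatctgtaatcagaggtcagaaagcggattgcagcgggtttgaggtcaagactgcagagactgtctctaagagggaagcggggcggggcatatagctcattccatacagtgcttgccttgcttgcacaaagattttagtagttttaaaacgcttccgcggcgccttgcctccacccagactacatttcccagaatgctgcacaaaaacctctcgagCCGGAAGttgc
Mrpl28, chr17:26123253-26123502, plus strand: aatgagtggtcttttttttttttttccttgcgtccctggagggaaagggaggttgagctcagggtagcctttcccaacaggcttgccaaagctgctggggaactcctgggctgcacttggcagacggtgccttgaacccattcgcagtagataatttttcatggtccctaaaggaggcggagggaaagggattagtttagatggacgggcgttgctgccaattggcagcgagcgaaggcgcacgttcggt
Mrps9, chr1:42850983-42851232, plus strand: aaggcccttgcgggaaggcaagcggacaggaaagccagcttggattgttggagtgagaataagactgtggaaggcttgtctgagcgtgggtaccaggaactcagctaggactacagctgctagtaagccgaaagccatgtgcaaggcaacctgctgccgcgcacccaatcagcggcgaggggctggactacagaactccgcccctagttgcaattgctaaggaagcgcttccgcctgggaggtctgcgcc

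The NRF1 motif searched was the core CGCATGCG, which reads the same on both strands. It was present in 7 of the 67 genes (10.4%), against 1.75% of all 27025 genes with a window and 2.32% of the protein-coding ones. The 7 genes were Mrpl9, Mrpl10, Mrpl17, Mrpl22, Mrpl32, Mrpl39 and Mrps18b. In Mrpl39 it began 124 bases before the start. This core was chosen after the windows had been searched with a longer form, which fewer of these genes held. The ETS motif searched on both strands was CCGGAAG, found in 17 of the 67 genes (25.4%), against 7.83% of all genes with a window and 10.2% of the protein-coding ones. Mrps22, Mrpl3 and Mrpl58 carried it 11, 19 and 17 bases before the start. The YY1 motif AAGATGGC, also searched on both strands, was found in 4 of the 67 genes (5.97%) against 1.83% of all genes and 1.77% of the protein-coding ones. Each printed window with capitals held 1 match, so no matches overlapped there. These matches describe letters in the windows and were not tied to the array values.

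Array medians lay between 6.55 and 6.62 log2 units and all 76 genes had a mean above the median of the probe means. Cardiomyocyte markers averaged 18.36 and 18.33 in TTg-MI and 18.14 and 18.41 in Ctrl-MI, near the highest value of 19.93 on any array. Several of them, such as Mb, Atp2a2 and Fabp3, sat at that upper end on every array, so their order over the arrays carries no information. Ctrl-MI replicate 1 stood apart from the other arrays. Its Pearson correlations across all probes were 0.982 and 0.977 with the TTg-MI arrays and 0.987 with Ctrl-MI replicate 2, whereas the other 3 arrays correlated at 0.989 to 0.991 with each other. Ctrl-MI replicate 2 had the lowest mean of 10 atrial muscle markers, 8.95 against 11.17 in Ctrl-MI replicate 1, with 12.42 and 11.56 in TTg-MI. In Ctrl-MI replicates 1 and 2, Myl4 read 15.99 and 7.70, Sln 14.07 and 7.90, and Myl7 10.44 and 5.61. For 4 of the 10 markers Ctrl-MI replicate 1 was instead the lower Ctrl-MI heart. The list includes Tbx5, a factor in the name MGTH2A, at 10.68 and 9.72 in TTg-MI and 7.62 and 7.88 in Ctrl-MI. Every comparison without Ctrl-MI replicate 1 rests on Ctrl-MI replicate 2 alone. Results are given with all 4 arrays and with single arrays left out.

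As a family the mitochondrial ribosomal protein genes had nearly the same level in both TTg-MI hearts and in Ctrl-MI replicate 2, and a lower level in Ctrl-MI replicate 1. The mean log2 level over the 76 genes was 9.91 and 9.88 in TTg-MI replicates 1 and 2, against 9.41 and 9.89 in Ctrl-MI replicates 1 and 2. Ctrl-MI replicate 1 held the lowest of the 4 values for 67 of the 76 genes. Over all probes the same array was lowest for 28.4%. The gap between the Ctrl-MI hearts was larger than the difference between the groups for 55 of the 76 genes. The same held for 13409 of all 22206 probes. In bulk tissue, fewer cells of a type and less RNA per cell cannot be told apart.

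With all 4 arrays, the TTg-MI mean was higher for 65 of the 76 genes and lower for 11, against 52.3% higher over all 22206 probes. The median log2 difference (TTg-MI minus Ctrl-MI) was 0.21, a 1.16-fold difference, with quartiles of 0.08 and 0.37. Over all probes the median was 0.01. For 26 genes the lower TTg-MI value exceeded the higher Ctrl-MI value, where the background was 19.4% of all probes. For 2 genes the reverse held, where it was 18.7%. The arrays of the groups overlapped for the remaining 48 genes.

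Without Ctrl-MI replicate 1 this difference was near 0. The median log2 difference was then 0.02, and the TTg-MI mean was higher for 41 of the 76 genes, against 52.2% of all probes. Without Ctrl-MI replicate 2 the median was 0.44 and 71 genes were higher, against 50% of all probes. Leaving out TTg-MI replicate 1 gave a median of 0.23 with 58 genes higher, against 52% of all probes. Leaving out TTg-MI replicate 2 gave 0.21 with 64 higher, against 51.3%.

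**Figure D1:**
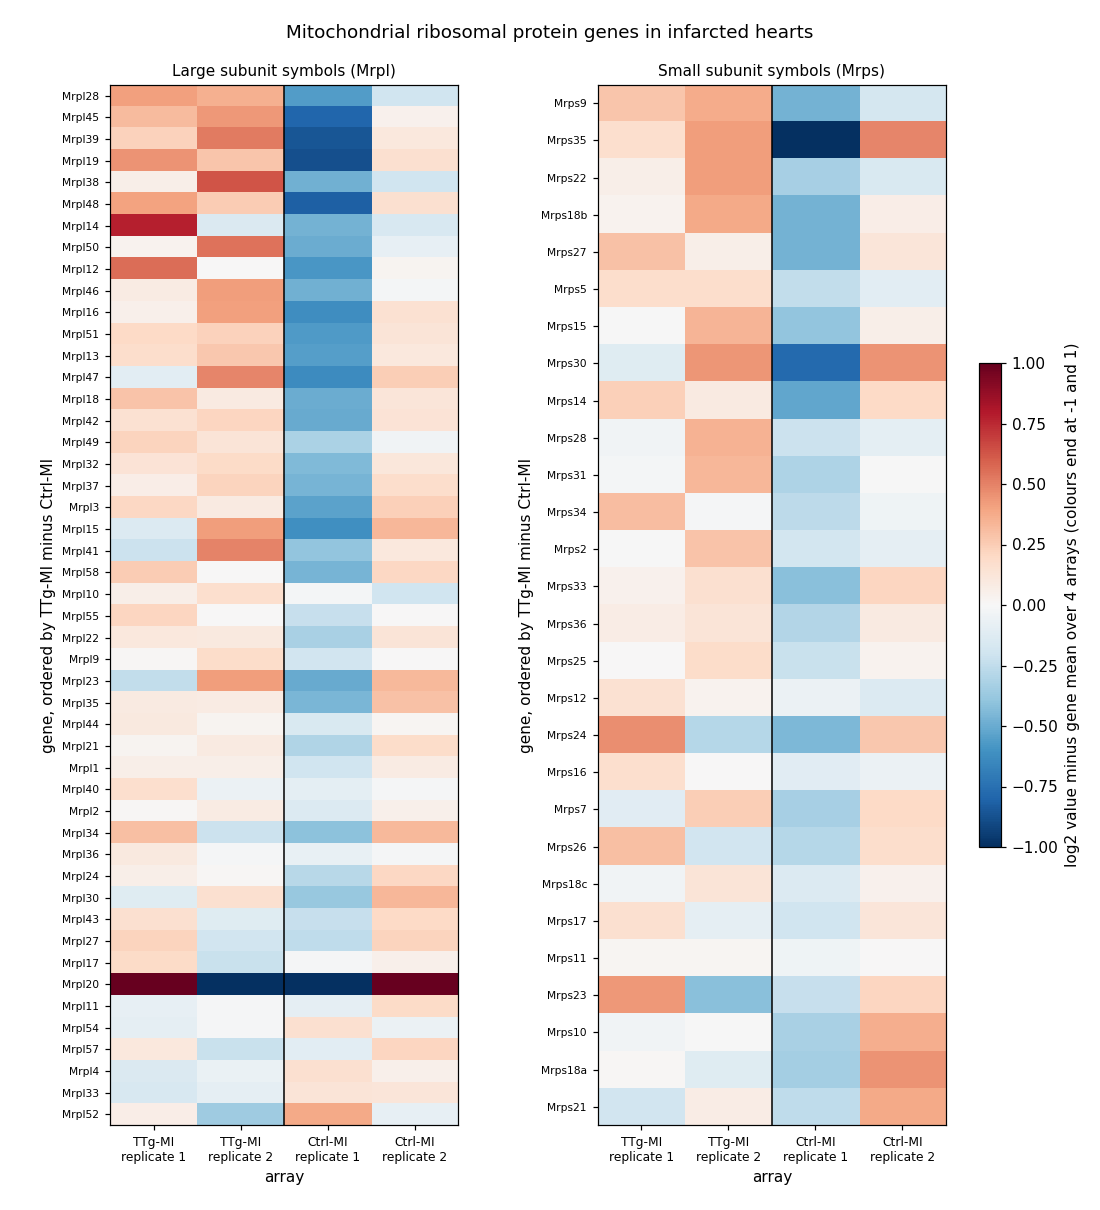
Log2 value of each of the 76 genes on each array minus the gene's mean over the 4 arrays (colour), with large subunit symbols on the left, small subunit symbols on the right, and genes ordered from the highest to the lowest TTg-MI minus Ctrl-MI difference. Ctrl-MI replicate 1 is the lowest array for 67 genes, and Mrpl20 alternates between arrays of both groups. Mrpl20 and Mrps35 go beyond the ends of the colour scale.

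In limma with Benjamini-Hochberg adjustment over all probes, 0 of the 76 genes passed an adjusted p of 0.05, against a background of 0.0045% of probes (1 probe). The smallest adjusted p among the 76 genes was 0.546 (limma). At an unadjusted limma p under 0.05, 5 genes were higher in TTg-MI and 0 lower, where the background was 3.18% of probes higher and 5.07% lower. The 5 genes were Mrpl28, Mrps9, Mrpl38, Mrpl45 and Mrps22. Leaving out Ctrl-MI replicate 1 gave 2 higher genes (Mrpl28 and Mrps9, background 2.56%) and 1 lower gene (Mrps18a, background 3.77%). Leaving out Ctrl-MI replicate 2 gave 30 higher genes, against a background of 7.02%, and 0 lower genes, against 7.73%. Leaving out TTg-MI replicate 1 gave 5 higher (2.12% of probes) and 0 lower (3.67%), and leaving out TTg-MI replicate 2 gave 3 higher (1.43%) and 0 lower (2.45%). With 2 arrays a group, an exact permutation test of 1 gene cannot give a two-sided p below 0.333.

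**Figure D2:**
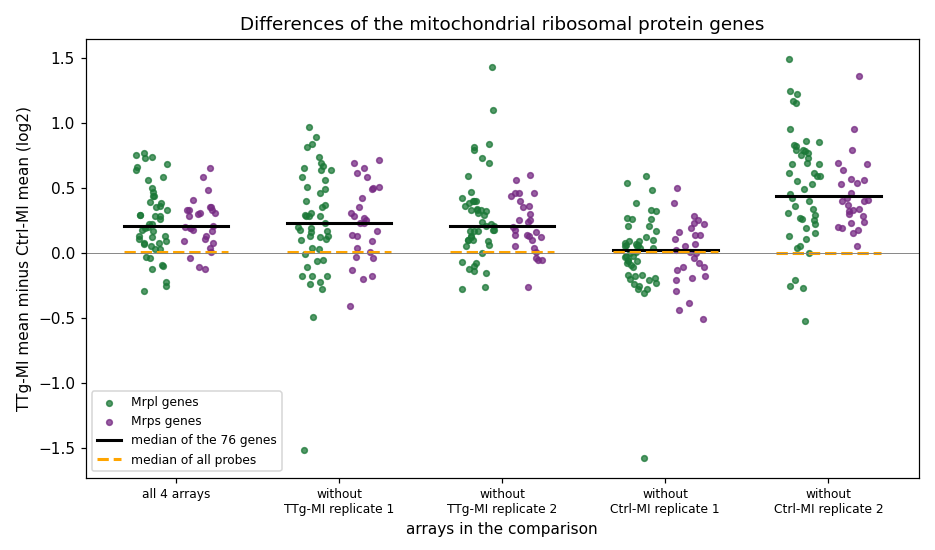
TTg-MI mean minus Ctrl-MI mean (log2) of each of the 76 genes with all 4 arrays and with each array left out, Mrpl genes in green and Mrps genes in purple. Solid lines mark the median of the 76 genes and dashed lines the median of all probes. The median of the genes is 0.21 with all arrays, 0.02 with Ctrl-MI replicate 1 left out and 0.44 with Ctrl-MI replicate 2 left out.

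Among large subunit proteins with a bacterial counterpart, Mrpl28 (bL28m) had the smallest p of the whole family. It had 9.14 and 9.09 log2 units in TTg-MI hearts, against 8.17 and 8.53 in Ctrl-MI hearts. The TTg-MI hearts lay close together and both Ctrl-MI hearts lay below them. The difference was 0.77 (SE 0.18, 1.70-fold, limma adjusted p = 0.546 with Benjamini-Hochberg), and leaving out Ctrl-MI replicate 1 gave 0.59, leaving out Ctrl-MI replicate 2 gave 0.95. Mrpl28 was 1 of the 26 genes whose TTg-MI values both exceeded both Ctrl-MI values. For each of these the groups necessarily stay apart whichever Ctrl-MI heart is used.

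Proteins of the large subunit that are specific to mitochondria included several of the larger differences. Mrpl45, which anchors the ribosome to the inner membrane beside the tunnel exit, had 12.05 and 12.17 in TTg-MI, against 10.94 and 11.78 in Ctrl-MI. Ctrl-MI replicate 2 lay nearer to the TTg-MI hearts than to the other Ctrl-MI heart. The difference was 0.75 (SE 0.29, limma adjusted p = 0.600) with all arrays and 0.33 without Ctrl-MI replicate 1. Mrpl38, a protein of the central protuberance, had 10.92 and 11.49 in TTg-MI, against 10.38 and 10.66 in Ctrl-MI. Here the spread was wider between the TTg-MI hearts. Its difference was 0.68 (SE 0.24, limma adjusted p = 0.580), and 0.54 without Ctrl-MI replicate 1.

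Mrpl46, also in the central protuberance, had 7.05 and 7.39 in TTg-MI and 6.49 and 6.95 in Ctrl-MI, a difference of 0.50 (SE 0.23). Mrpl50 stood at 10.86 and 11.37 in TTg-MI and 10.33 and 10.74 in Ctrl-MI (0.58, SE 0.24). Mrpl39 read 10.46 and 10.75 in TTg-MI and 9.38 and 10.34 in Ctrl-MI (0.74, SE 0.34). For these 3 genes the groups did not overlap, but Ctrl-MI replicate 2 lay only just below the nearer TTg-MI heart. Without Ctrl-MI replicate 1 their differences were 0.27, 0.38 and 0.26.

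Mrpl12 belongs to the stalk that recruits translation factors, and in humans its product also binds the mitochondrial RNA polymerase. It had 12.32 and 11.77 in TTg-MI, against 11.18 and 11.79 in Ctrl-MI. The groups overlapped, since TTg-MI replicate 2 and Ctrl-MI replicate 2 were about equal. Its difference of 0.56 (SE 0.29) became 0.26 without Ctrl-MI replicate 1. Mrpl58, a hydrolase that releases stalled chains, also overlapped, with 11.87 and 11.62 in TTg-MI and 11.15 and 11.82 in Ctrl-MI (0.26, SE 0.26, and -0.08 without Ctrl-MI replicate 1).

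Mrpl3 and Mrpl44 are large subunit genes whose variants cause cardiomyopathy in humans. Mrpl44 had 10.25 and 10.18 in TTg-MI, against 10 and 10.17 in Ctrl-MI. Its 4 values lay within 0.25 log2 units, and the difference was 0.13 (SE 0.16), or 0.05 without Ctrl-MI replicate 1. Mrpl3 had 10.31 and 10.19 in TTg-MI, against 9.57 and 10.34 in Ctrl-MI. Only Ctrl-MI replicate 1 was low, and the difference of 0.29 (SE 0.28) turned to -0.09 without that heart.

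A few large subunit genes ran the other way. Mrpl33 (bL33m) had 14.15 and 14.22 in TTg-MI, against 14.44 and 14.43 in Ctrl-MI. The Ctrl-MI hearts lay close together here, including Ctrl-MI replicate 1, and the difference of -0.25 (SE 0.15, limma adjusted p = 0.731) was the same without either Ctrl-MI heart. Mrpl4 (uL4m), whose bacterial counterpart lines the exit tunnel, had 9.49 and 9.57 in TTg-MI, against 9.80 and 9.69 in Ctrl-MI (-0.22, SE 0.15, limma adjusted p = 0.779). These were the 2 genes whose TTg-MI values were both lower than either Ctrl-MI value.

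Mrpl52 had the lowest difference of the family, -0.29 (SE 0.24), with 8.37 and 7.95 in TTg-MI and 8.68 and 8.22 in Ctrl-MI. Its groups overlapped, and the difference was -0.06 without Ctrl-MI replicate 1. Mrpl54, Mrpl57 and Mrpl11, the last at the base of the stalk, differed by -0.10 (SE 0.16), -0.12 (SE 0.20) and -0.09 (SE 0.17) with overlapping groups.

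In the small subunit, Mrps9 (uS9m) had 12.04 and 12.13 in TTg-MI, against 11.29 and 11.59 in Ctrl-MI. The hearts of each group lay near each other, with a clear gap between groups. The difference was 0.65 (SE 0.17, 1.56-fold, limma adjusted p = 0.546), where leaving out Ctrl-MI replicate 1 gave 0.50 and leaving out Ctrl-MI replicate 2 gave 0.79. Mrps22, a mitochondria-specific protein whose variants in humans cause an early cardiomyopathy, had 7.21 and 7.57 in TTg-MI, against 6.82 and 7.00 in Ctrl-MI. Both TTg-MI hearts lay above both Ctrl-MI hearts. The difference was 0.48 (SE 0.19, limma adjusted p = 0.600), and 0.38 without Ctrl-MI replicate 1.

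Mrps5 (uS5m), whose bacterial counterpart affects the accuracy of decoding, read 9.20 in both TTg-MI hearts and 8.78 and 8.92 in Ctrl-MI hearts (0.35, SE 0.15, limma adjusted p = 0.619). Mrps28 (bS1m) differed by 0.31 (SE 0.19) and Mrps2 (uS2m) by 0.28 (SE 0.17), both without overlap of the groups. The Ctrl-MI values of these 3 genes lay closer together than those of Mrps9 or Mrps22.

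The Mrps18 genes encode 3 related proteins that take different places in the ribosome. Mrps18b, a small subunit protein, had 9.37 and 9.71 in TTg-MI, against 8.86 and 9.40 in Ctrl-MI (0.41, SE 0.24, and 0.14 without Ctrl-MI replicate 1). Mrps18c, the closest counterpart of the bacterial protein, differed by 0.09 (SE 0.16). Mrps18a, which sits in the large subunit despite its symbol, had 8.29 and 8.16 in TTg-MI, against 7.94 and 8.73 in Ctrl-MI. Both TTg-MI hearts lay between the Ctrl-MI hearts, and the difference of -0.11 (SE 0.28) became -0.51 if Ctrl-MI replicate 1 was left out and 0.28 if Ctrl-MI replicate 2 was. Mrps30, also a large subunit protein by structure, spanned 7.64 to 8.87 between the Ctrl-MI hearts, with 8.30 and 8.86 in TTg-MI, and its difference of 0.33 (SE 0.43) was -0.29 without Ctrl-MI replicate 1. Mrps21 and Mrps10 overlapped too, at -0.12 (SE 0.25) and -0.04 (SE 0.25).

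**Figure D3:**
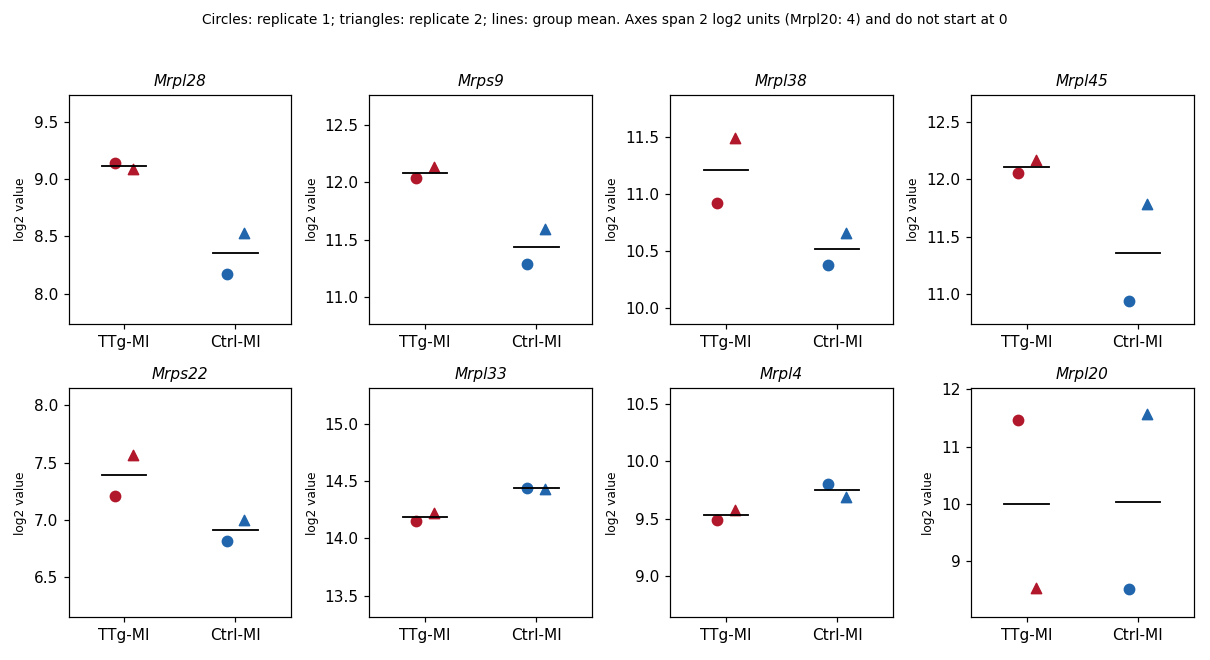
Log2 values of 8 genes in TTg-MI hearts (left in each panel, red) and Ctrl-MI hearts (right, blue), with circles for replicate 1, triangles for replicate 2 and lines for group means. The axes span equal lengths except for Mrpl20 and do not start at 0. Mrpl28 and Mrps9 are apart between groups, Mrpl33 and Mrpl4 are slightly lower in TTg-MI, and Mrpl20 reads about 11.5 in 1 heart and about 8.5 in the other of each group.

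Mrpl20 (bL20m), a large subunit protein that binds ribosomal RNA, was singled out after its values were seen. It had 11.47 and 8.53 in TTg-MI replicates 1 and 2, against 8.51 and 11.57 in Ctrl-MI replicates 1 and 2. High and low values thus occurred once in each group, and the group difference was -0.04 (SE 1.28). Its range of 3.06 log2 units was the widest of the family and the 1 range above 2, which 1.39% of all probes exceeded. Its neighbour in gene order Ccnl2, a cyclin, had 9.14 and 9.68 in TTg-MI and 9.36 and 9.48 in Ctrl-MI, without such jumps. The cause was not tested.

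The other members outside the naming rule with the widest ranges over the arrays were Mrps35 (1.56), Mrpl19 (1.33) and Mrpl14 (1.25). Mrps35, a mitochondria-specific small subunit protein, had 7.85 and 8.10 in TTg-MI, against 6.62 and 8.17 in Ctrl-MI. Its low value was that of Ctrl-MI replicate 1, and the difference of 0.58 (SE 0.49) was -0.19 without it. Mrpl14 was high in 1 TTg-MI heart, with 8.99 and 8.07 in TTg-MI and 7.74 and 8.05 in Ctrl-MI. At the other end, Mrps11 kept within 0.06 log2 units over the 4 arrays, at 10.68 in both TTg-MI hearts and 10.62 and 10.66 in Ctrl-MI hearts.

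Subunits and classes of protein are given side by side, and differences between them were not tested. Genes with Mrpl symbols had a median difference of 0.22, with 40 of 48 higher, and genes with Mrps symbols a median of 0.20, with 25 of 28 higher. Both medians were 0.02 without Ctrl-MI replicate 1. The mean level of the Mrpl genes was 10.14 and 10.09 in TTg-MI, against 9.61 and 10.11 in Ctrl-MI. That of the Mrps genes was 9.51 and 9.53 in TTg-MI, against 9.07 and 9.52 in Ctrl-MI. The 30 mitochondria-specific proteins had a median of 0.31 and the 45 with a bacterial counterpart 0.18. Without Ctrl-MI replicate 1 these medians were 0.05 and -0.02, and with Ctrl-MI replicate 2 left out instead they were 0.55 and 0.40. Mrps36, now regarded as a part of the oxoglutarate dehydrogenase complex, was left out of these classes and differed by 0.20 (SE 0.19).

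Other genes of mitochondrial protein synthesis were described with the same measures, and their differences from the ribosomal proteins were not tested. Ctrl-MI replicate 1 was lowest for 15 of 19 translation factors, 18 of 27 assembly factors and 14 of 18 aminoacyl-tRNA synthetases. The 19 measured translation factors averaged 9.76 and 9.93 in TTg-MI, against 9.22 and 9.80 in Ctrl-MI, with a median difference of 0.27 and 0.09 without Ctrl-MI replicate 1. Of these, 0 passed the limma adjustment, and 1 had an unadjusted p under 0.05 in the higher direction, where the background was 3.18% of probes. This was Qrsl1, a subunit of the enzyme that forms mitochondrial glutaminyl-tRNA, with 9.38 and 9.46 in TTg-MI and 8.30 and 8.93 in Ctrl-MI (0.81, SE 0.24, and 0.49 without Ctrl-MI replicate 1). The elongation factor Tufm differed by 0.56 (SE 0.24) and the methionine aminopeptidase Metap1d by 0.69 (SE 0.29). These were 0.24 and 0.36 without Ctrl-MI replicate 1.

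Of 27 measured assembly factors 20 had a higher TTg-MI mean, with a median of 0.20, and 0.05 without Ctrl-MI replicate 1. The 3 with an unadjusted limma p under 0.05 were all higher, against 3.18% of probes. Leaving out other arrays gave a median of 0.39 (Ctrl-MI replicate 2), 0.23 (TTg-MI replicate 1) or 0.13 (TTg-MI replicate 2). Malsu1, which in humans keeps the immature large subunit from joining the small one, had 7.12 and 7.00 in TTg-MI, against 6.33 and 6.50 in Ctrl-MI (0.65, SE 0.16, limma adjusted p = 0.546). Its difference was 0.56 without Ctrl-MI replicate 1. Nsun4, a ribosomal RNA methyltransferase, differed by 0.79 (SE 0.29), or 0.43 without Ctrl-MI replicate 1, and Ngrn, which stabilises the large ribosomal RNA, by 0.38 (SE 0.15). Of 18 measured aminoacyl-tRNA synthetases, 16 were higher by mean with a median of 0.22, and 3 had an unadjusted p under 0.05, all higher, against 3.18% of probes. Without Ctrl-MI replicate 1 their median fell to 0.03, with 10 higher. Dropping Ctrl-MI replicate 2 instead raised it to 0.43. Dropping TTg-MI replicate 1 gave 0.37, and dropping TTg-MI replicate 2 gave 0.15. The 3 genes with such a p on all arrays were Nars2 (0.55, SE 0.19), Aars2 (0.41, SE 0.15) and Fars2 (0.55, SE 0.21).

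The 4 measured proteins of the mitochondrial ribosome that go by other symbols did not share a direction. Dap3, a GTP-binding protein of the small subunit, had 11.16 and 11.33 in TTg-MI, against 10.47 and 11.10 in Ctrl-MI (0.46, SE 0.24). Ctrl-MI replicate 2 lay just below TTg-MI replicate 1, and the difference was 0.14 without Ctrl-MI replicate 1. Chchd1 (-0.20, SE 0.19) and Gadd45gip1 (-0.35, SE 0.22) had lower TTg-MI means with overlapping groups, as had Ptcd3 (-0.06, SE 0.35).

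Nuclear-encoded subunits of complex I, which takes part of its subunits from mitochondrial translation, are set beside the family. The 37 genes averaged 14.26 and 14.34 in TTg-MI, against 13.80 and 14.32 in Ctrl-MI, and Ctrl-MI replicate 1 was lowest for 33 of them. Their median difference was 0.24 with all arrays and 0.00 without that heart. In limma 0 passed the adjustment and 4 had an unadjusted p under 0.05, all higher, against 3.18% of probes. The median difference was 0.49 without Ctrl-MI replicate 2, and 0.26 and 0.25 without TTg-MI replicates 1 and 2. Ndufs7, a core subunit, differed by 0.86 (SE 0.17) and by 0.95 without Ctrl-MI replicate 1. The 62 cytosolic ribosomal protein genes went the other way, averaging 12.91 and 12.72 in TTg-MI and 13.24 and 13.00 in Ctrl-MI. Ctrl-MI replicate 1 was highest for 49 of these 62 genes, the median difference was -0.30, and without Ctrl-MI replicate 1 it was -0.14. In limma 0 passed the adjustment and 12 had an unadjusted p under 0.05, all lower, against 5.07% of probes, among them Rps28 (-0.81, SE 0.21) and Rpl38 (-0.77, SE 0.20). With other arrays left out, the median difference of the cytosolic genes was -0.44 (Ctrl-MI replicate 2), -0.37 (TTg-MI replicate 1) or -0.21 (TTg-MI replicate 2). No test of the difference between these families was made.

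Markers of cell types differed in how they ran across the arrays. The 11 measured fibroblast markers averaged 12.04 and 10.99 in TTg-MI, against 13.44 and 12.56 in Ctrl-MI, and Ctrl-MI replicate 1 was highest for all 11. Both TTg-MI values lay below both Ctrl-MI values for all 11, where the background was 18.7% of probes. Their median difference was -1.37, and -0.88 without Ctrl-MI replicate 1. The 11 macrophage markers averaged 8.28 and 7.86 in TTg-MI, against 9.67 and 8.60 in Ctrl-MI, with Ctrl-MI replicate 1 highest for 9. Their median difference was -1.02, and -0.45 without Ctrl-MI replicate 1. Of the 16 cardiomyocyte markers, 14 had a higher TTg-MI mean, with a median difference of 0.07. Ctrl-MI replicate 1 was lowest for 14, though the order carries no information for those at the upper end of the scale. Without that heart the median was 0.00 and 8 were higher. Among the markers below the upper end, Ryr2, the calcium release channel, had 16.24 and 16.60 in TTg-MI, against 15.09 and 15.97 in Ctrl-MI. Myh7, a myosin heavy chain, ran against most of the list, with 17.75 and 17.12 in TTg-MI and 18.93 and 18.87 in Ctrl-MI. The means of the 11 endothelial markers ran from 11.55 to 11.97 in TTg-MI and from 11.73 to 11.97 in Ctrl-MI. Values for the 10 smooth muscle and pericyte markers ran from 9.91 to 10.02 in TTg-MI and from 9.78 to 9.91 in Ctrl-MI, and the 9 lymphocyte markers had a median difference of -0.14. The lymphocyte markers averaged 5.64 and 5.66 in TTg-MI and 6.08 and 6.06 in Ctrl-MI, near the lower quartiles of the arrays (5.41 to 5.48). Of the 9, 2 had a higher TTg-MI mean. Jchain, of antibody-secreting cells, had the difference furthest from 0 (-2.63), with 5.85 and 6.13 in TTg-MI, against 8.72 and 8.51 in Ctrl-MI. The part of cell composition in the ribosomal protein values was not tested.

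**Figure D4:**
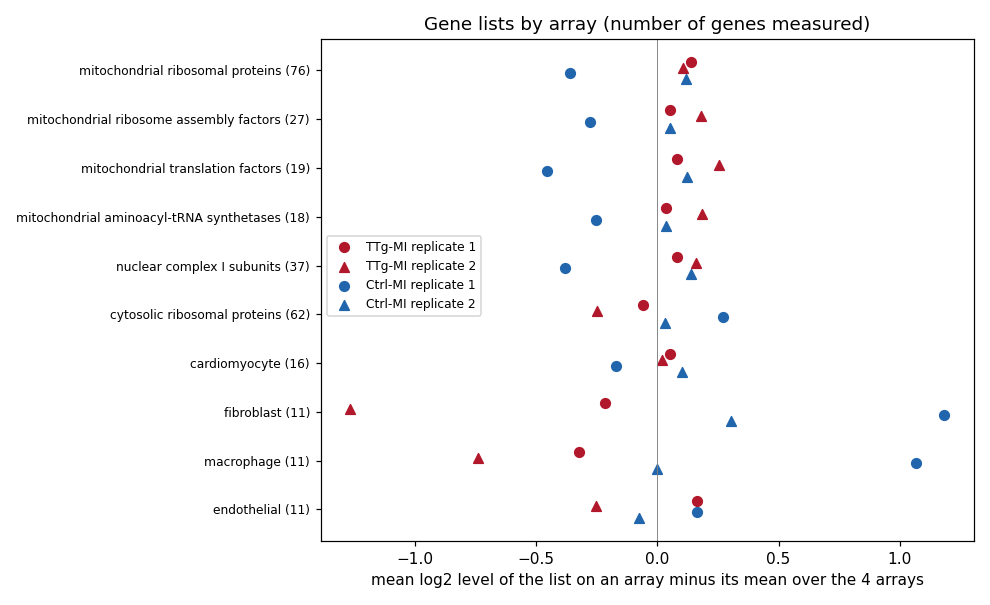
Mean log2 level of each gene list on each array minus its mean over the 4 arrays, TTg-MI in red and Ctrl-MI in blue, circles for replicate 1 and triangles for replicate 2, with the number of genes measured beside each name. In Ctrl-MI replicate 1 the mitochondrial lists lie to the left of all other arrays, and the cytosolic ribosomal protein, fibroblast and macrophage lists to the right.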

How the data were processed

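Whole-heart RNA from 2 TTg-MI and 2 Ctrl-MI mice was read on 4 Clariom S Mouse arrays. The deposited log2 values were made by the authors. The submitters' processing notes name Affymetrix Expression Console 1.4. The log base was inferred from the range of about 4 to 20, and normalization, summarization, annotation version and build are not given in the sources used here. Of 22206 probes, 19572 had 1 symbol, 0 several and 2634 none. The values were used as deposited. All probes were fitted with limma 3.58.1 in R 4.3.3 (lmFit and eBayes, two-sided). P-values were adjusted by Benjamini-Hochberg across the whole array, with 0.05 as threshold. Each difference rests on 2 residual and 3.56 prior degrees of freedom, and the number of arrays limits precision. The fit was tested on simulated data.

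Members, lists and tests were chosen with earlier results of these data known. Named were, for Mrpl and Mrps symbols and each direction, the 6 genes with the smallest p, then Mrpl3, Mrpl12, Mrpl44, Mrps22, Mrpl58, Mrps30 and the Mrps18 genes, and up to 3 genes of each other list. Other members with values (Mrpl20, Mrps35, Mrpl19, Mrpl14, Mrps11, Mrps36) were chosen after their values were seen. So were Ptcd3, Mb, Atp2a2, Fabp3, Myl4, Sln and Myl7, and the regulators in the closing section that the naming rule does not name. Of 178 list entries, 163 matched a named probe. Alternatives were quantile normalization, median centring, filters on dim probes, a replicate block, an intensity trend with robust prior, 1 array left out at a time, 1 probe per symbol, the mean of a gene's probes, no moderation and a threshold of 0.1. The hearts are independent biological replicates, per the labels. Promoter windows came from RefSeq (GRCm38.p6).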

Additional observations from a re-analysis of the deposited data

How the results depend on the processing

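With 2 arrays a group the count of genes past the adjusted threshold was 0 in limma under every alternative that kept all 4 arrays, the threshold of 0.1 included. Over all 22206 probes, 1 passed in the main fit, 4 with the intensity trend and robust prior, 7 with the replicate block and 0 without moderation. More probes passed without Ctrl-MI replicate 2, a fit that rests on a single Ctrl-MI array. At an unadjusted limma p under 0.05, the higher genes numbered 5 with all arrays, 3 with median centring, 3 with the filter at the median, 1 without moderation, 9 with the replicate block and 2 to 30 as single arrays were left out (2 when Ctrl-MI replicate 1 was left out, 30 for Ctrl-MI replicate 2 and 3 for TTg-MI replicate 2). The lower genes numbered 0, with 1 without moderation and 0 to 1 as arrays were left out. The share of all probes at such a p was not counted with median centring, the filter, the replicate block or no moderation. Whether those counts differ from the main fit beyond their background was thus not tested. The labels do not say that replicate numbers pair hearts. Deviations of same-numbered arrays from their group means correlated at 0.16 over all probes and at -0.37 over the 76 genes, and the block changed the call of no named gene after adjustment. As single arrays were left out, the median difference ran from 0.016 to 0.437 for all genes, 0.024 to 0.541 for Mrpl and 0.016 to 0.397 for Mrps genes. The same fits gave 26 to 69 genes with TTg-MI above Ctrl-MI and 3 to 20 below, fewer arrays making overlap rarer. The share of all probes without overlap was not counted in these fits. Their counts therefore cannot be set against a background or against the counts with all 4 arrays. The median over all genes was 0.254 with quantile normalization and 0.227 with median centring. Named differences that changed sign without an array had these ranges: Mrpl11 -0.23 to 0.0528, Mrpl3 -0.0911 to 0.679, Mrpl54 -0.211 to 0.0113, Mrpl57 -0.278 to 0.0458, Mrpl58 -0.0777 to 0.591, Mrps10 -0.384 to 0.304, Mrps18a -0.512 to 0.283, Mrps21 -0.44 to 0.193, Mrps30 -0.29 to 0.945. Mrps10 was 0.00201 with quantile normalization. The cause of these changes was not tested beyond the values of each array.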

Other observations

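Regulators of mitochondrial gene expression are represented by 17 measured genes, whose difference from the ribosomal proteins was not tested. Of these genes, 12 had a higher TTg-MI mean, with a median log2 difference (TTg-MI minus Ctrl-MI) of 0.12 and 0.03 without Ctrl-MI replicate 1. At an unadjusted limma p under 0.05 there were 0, against 3.18% of probes higher and 5.07% lower. Among only 17 genes, a count of 0 does not show that they were unchanged. Nrf1, a transcription factor of respiratory genes, had 7.92 and 8.04 in TTg-MI, against 8.05 and 8.20 in Ctrl-MI (-0.14, SE 0.16). Gabpa, the DNA-binding part of GABP, had 11.12 and 11.29 in TTg-MI and 10.83 and 11.38 in Ctrl-MI (0.10, SE 0.23, and -0.18 without Ctrl-MI replicate 1). The coactivator Ppargc1a spread widely in TTg-MI, at 15.12 and 16.72, against 15.89 in both Ctrl-MI hearts (0.03, SE 0.50). Ppargc1b had 11.17 and 11.15 in TTg-MI and 9.65 and 11.12 in Ctrl-MI, where Ctrl-MI replicate 1 alone was low (0.78, SE 0.46, and 0.04 without it). Myc, a growth regulator, was highest in that same heart, with 6.88 and 6.89 in TTg-MI and 9.47 and 7.40 in Ctrl-MI (-1.55, SE 0.64, and -0.52 without it). Esrrg, an orphan nuclear receptor, differed by 0.58 (SE 0.33) and Pprc1, a coactivator, by -0.36 (SE 0.20). These were 0.11 and -0.59 without Ctrl-MI replicate 1.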
